A study of Mus musculus with 3 samples.

Results

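The genes of 8 myeloid C-type lectin receptors were examined in chromatin-bound RNA: Clec4e, Clec4d, Clec4n, Clec4a1, Clec4a2, Clec4a3, Clec7a and Clec5a. They were chosen by gene symbol, and all 8 were found among the 55536 annotated genes. The RNA came from primary macrophages grown from bone marrow of C57BL/6J mice, and it was the chromatin fraction of those cells. The cells had received Lipid A, a ligand of Toll-like receptor 4, at 100 ng/ml for 12 h, had spent 12 h after washout without it, and had received 100 ng/ml again for 60 min. Replicates 1, 2 and 3 form this single group, with 1000, 250 and 500 ng of starting RNA. There is no untreated arm, so the values are levels in cells dosed on both occasions and not responses to Lipid A. The labels give separate biosamples under 1 donor entry, with sex and age not collected. Whether they were separate animals or cultures is not stated, and a p-value here measures only the spread between these samples, which may be technical.

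C-type lectin receptors of myeloid cells sit in the plasma membrane and bind sugars and lipids of fungi, bacteria, viruses and damaged cells. Several of them lack a signalling tail and pair with adaptors that carry an immunoreceptor tyrosine-based activation motif (ITAM), or carry a shortened form of it (hemITAM) themselves. These recruit the kinase Syk, which acts through protein kinase C delta and the Card9, Bcl10 and Malt1 complex on NF-kB. Members of the Clec4a branch include an inhibitory receptor whose cytoplasmic motif recruits phosphatases.

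Gene counts summed to between 12602702 and 17222239 per library, where 3 counts, the limit that a count of 0 allows, amount to 0.174 to 0.238 CPM (counts scaled to the library total). All 12 macrophage markers were detected, led by Adgre1 at 441 ± 140 TPM (SD, n = 3), where TPM is a level scaled for transcript length and for the library. Neutrophils also transcribe several of these receptors, and none of the 12 neutrophil markers exceeded 3 counts in a library. Among 10 dendritic cell markers, 8 were detected, their summed level ranged from 8.38 to 13.0 TPM, Batf3 was highest at 5.57 TPM on average, and Cd209a was at 0. Markers of other lineages were detected for 0 of 8 T and NK cell genes, 2 of 7 B cell genes and 3 of 8 mast cell and basophil genes. Detection rests on the RSEM-layout counts alone. In the kallisto-layout tables, another quantification, Cd3d averaged 14.4 TPM and the other T and NK cell markers at most 1.21 TPM. Of the neutrophil markers, Cxcr2 averaged 4.31 TPM there and the others at most 0.88 TPM. Fibroblast and stromal markers set replicate 2 apart, with 43677 counts over 11 genes there against 92 and 226 in replicates 1 and 3.

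The sequences that bear on the main pattern are those around 2 introns of Clec4e and 1 of Clec4d. Isoforms that hold all or part of these introns were given much of the TPM of both genes, and reads on the windows themselves were not counted. Each run below reads 5′ to 3′ on the strand of its gene and was taken from the GENCODE M21 transcript sequences (mm10, chromosome 6). It holds 12 exon bases and 18 intron bases, and the capitals mark the GT at the start or the AG at the end of the intron. The Clec4e windows lie on the − strand at chr6:123288876-123288905 and chr6:123286507-123286536 for intron 2 and at chr6:123286414-123286443 and chr6:123286348-123286377 for intron 3. The Clec4d window lies on the + strand at chr6:123267974-123268003.
Clec4e intron 2 donor: ccagatgtgtcgGTgggttctgatgatcag
Clec4e intron 2 acceptor: ttccctttcctcttacAGtaacatatcgca
Clec4e intron 3 donor: gtgaggcatcagGTataaccatctgcagca
Clec4e intron 3 acceptor: aagcctttctcctcttAGgttcagtcaaga
Clec4d intron 3 acceptor: tgtcaattctcacctgAGgaggtacttgga

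Every one of the 8 genes had at least 1 TPM in all 3 libraries, beside 38.9% of the 22028 protein-coding genes. Clec4e, Clec4d, Clec4a1 and Clec4a3 had at least 10 TPM in all 3, so 4 of 8, beside 16.7% of protein-coding genes. The levels spanned a wide range, and 2 receptors that pair with each other, Clec4e and Clec4d, stood at the top. Clec4e alone held 72.3, 75.8 and 74.7% of the summed TPM of the 8 genes in replicates 1, 2 and 3, and 91.7, 93.3 and 93.1% of their counts. These shares include isoforms annotated with a retained intron, which only Clec4e, Clec4d and Clec7a have, so the genes are unlike in what is counted. On protein-coding isoforms alone Clec4e had 85.4, 102 and 148 TPM in the 3 libraries. Clec4a1, the next highest by mean in that sum, had 77.6, 61.1 and 60.5 TPM. In bulk RNA, fewer cells that transcribe a gene and less RNA per cell cannot be told apart.

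Clec4e encodes Mincle, the receptor for the mycobacterial cord factor, which signals through the Fc receptor gamma chain (ENSMUSG00000030142.10, mm10 chromosome 6, 123281789 to 123289870, − strand). It had 795, 843 and 1003 TPM in replicates 1, 2 and 3, from 45060, 42131 and 52305 counts. The mean was 880 ± 109 TPM (SD, n = 3). The coefficient of variation was 12.3% in TPM and 25.2% in counts scaled with TMM factors, so how close the libraries lay depended on the scaling. Among the protein-coding genes its mean TPM ranked 19 of 22028.

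Clec4d encodes MCL, a relative of Mincle that is found in complex with it (ENSMUSG00000030144.4, 123262111 to 123275265, + strand). Its levels were 194, 158 and 243 TPM in replicates 1, 2 and 3, from 1874, 1178 and 2054 counts, with replicate 2 lowest and replicate 3 highest. The mean was 198 ± 42.3 TPM (SD, n = 3), above 98.8% of protein-coding genes, and 299 ± 75.7 TPM from kallisto. Clec4e exceeded Clec4d in each library, by 2.16 ± 0.21 on the log2(TPM + 1) scale. As in every such comparison of neighbours in the order, the exact two-sided sign-flip test over 3 libraries cannot give a p below 0.25, and it gave p = 0.25 here.

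Clec4n encodes Dectin-2, a receptor for fungal mannans that also uses the Fc receptor gamma chain (ENSMUSG00000023349.14, 123229843 to 123247021, + strand). With 5.65, 4.89 and 6.07 TPM in replicates 1, 2 and 3, from 69, 63 and 83 counts, it had a coefficient of variation of 10.8%, the smallest of the 8 in TPM. With TMM factors it was 27.1% and Clec7a had the smallest, at 11.6%, while in kallisto TPM it was 20.1% and Clec5a had the smallest, at 11.0%. Kallisto TPM of Clec4n averaged 10.5 ± 2.11 TPM, against 5.54 ± 0.60 TPM in the RSEM-layout tables (SD, n = 3). It lies beside Clec4d on the chromosome and on the same strand, and the level of Clec4d was far higher in every library. Clec4n had no entry in the promoter table.

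Clec5a encodes MDL-1, which signals through the adaptors DAP12 and DAP10 (ENSMUSG00000029915.14, 40574894 to 40585821, − strand). Its levels were 7.28, 9.62 and 12.9 TPM in replicates 1, 2 and 3, from 181, 238 and 362 counts. The mean was 9.94 ± 2.84 TPM (SD, n = 3), with replicate 1 lowest and replicate 3 highest. Clec5a exceeded Clec4n in 3 of 3 libraries, by 0.72 ± 0.35 in log2(TPM + 1), with p = 0.25 in the exact sign-flip test.

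Clec7a encodes Dectin-1, the receptor for fungal beta-glucan, which carries its own hemITAM (ENSMUSG00000079293.11, 129461591 to 129472779, − strand). GENCODE M21 annotates it as a polymorphic pseudogene. It had 3.27, 6.48 and 3.97 TPM in replicates 1, 2 and 3, the lowest mean of the 8 genes at 4.57 ± 1.69 TPM (SD, n = 3). These levels rested on 58, 89 and 56 counts, whose exact 95% Poisson intervals were 44.0 to 75.0, 71.5 to 109.5 and 42.3 to 72.7. The intervals, which cover counting error only, overlapped among all 3 libraries.

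The Clec4a branch was led by Clec4a1, a relative of the dendritic cell immunoreceptor DCIR (ENSMUSG00000049037.8, 122921848 to 122934619, + strand). It had 77.6, 61.1 and 60.5 TPM in replicates 1, 2 and 3, from 1587, 1048 and 1129 counts, and was next below Clec4d at 66.4 ± 9.65 TPM (SD, n = 3). Clec4d exceeded it by 1.55 ± 0.37 in log2(TPM + 1), and Clec4a1 exceeded Clec4a3 by 2.15 ± 0.52. Both differences had the same sign in 3 of 3 libraries, with p = 0.25 in the exact sign-flip test.

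Clec4a3, another relative of DCIR (ENSMUSG00000043832.13, 122952515 to 122969875, + strand), had 13.5, 20.2 and 10.2 TPM in replicates 1, 2 and 3, from 223, 277 and 140 counts. Clec4a2 encodes DCIR itself, the inhibitory member (ENSMUSG00000030148.15, 123106428 to 123143999, + strand). It had 3.58, 9.19 and 2.77 TPM, from 78, 147 and 82 counts. Both genes were highest in replicate 2 in these values, but Clec4a3 was highest in replicate 1 in CPM, with 17.7, 16.1 and 8.21, and in kallisto TPM, with 17.98, 17.5 and 10.5. The coefficient of variation of Clec4a2 was 67.5% in TPM, the widest of the 8. With TMM factors it was 17.1%, and Clec4a1 was widest at 43.0%. In kallisto TPM, Clec4a2 averaged 11.8 ± 3.41 TPM, against 5.18 ± 3.50 TPM in the RSEM-layout tables (SD, n = 3).

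Below Clec4a1 the order was less settled. Clec4a3 and Clec5a differed by 0.50 ± 0.71 in log2(TPM + 1), with Clec4a3 higher in 2 of 3 libraries and p = 0.5 in the exact sign-flip test. Clec4n and Clec4a2 differed by 0.22 ± 0.89, again with opposite signs between libraries, and the exact sign-flip test gave p = 0.75. Clec4a2 and Clec7a differed by 0.05 ± 0.42, also with an exact p = 0.75. None of these 3 pairs differed beyond the spread between libraries in RSEM TPM, while the other 4 pairs of neighbours did. Other values separated some of them. Clec4a2 minus Clec7a was 1.13 with kallisto TPM, 0.48 in CPM and 0.72 with protein-coding isoforms only, and Clec4a3 minus Clec5a was 1.81 with protein-coding isoforms only. Each of these 4 differences had 1 sign in 3 of 3 libraries, with p = 0.25 in the exact sign-flip test.

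**Figure D1:**
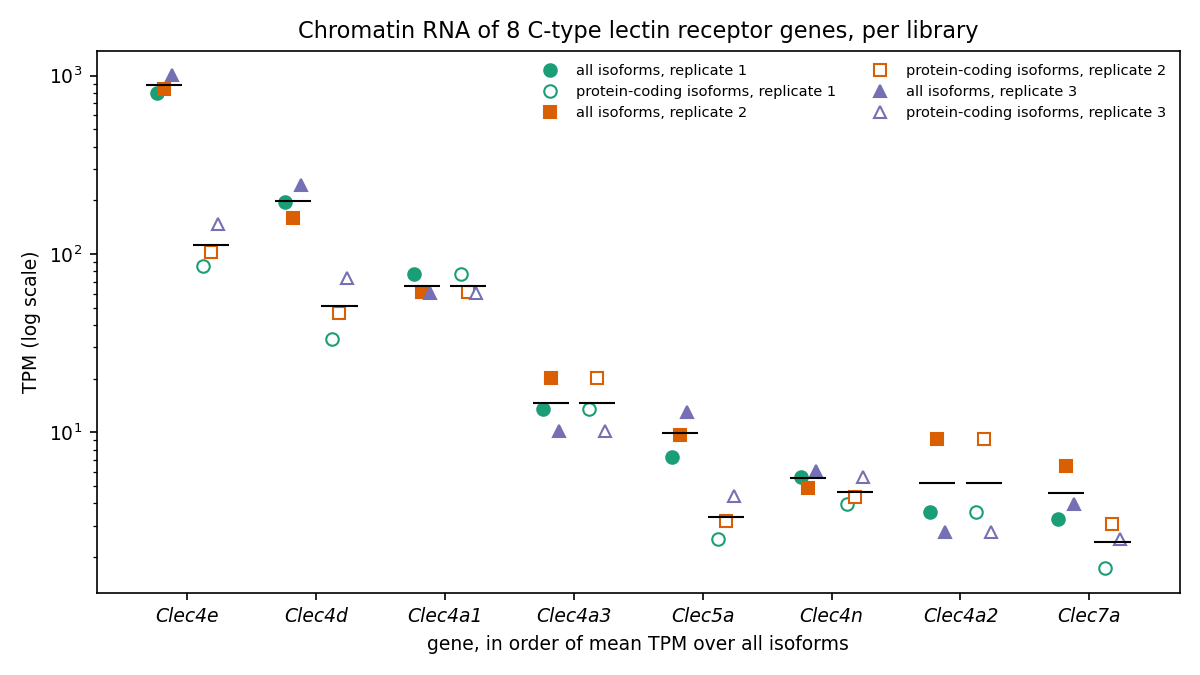
Level in TPM on a log axis for each of the 8 genes, in order of mean TPM, with 1 point per library and a line at the mean. Filled points sum all annotated isoforms and open points sum the isoforms annotated as protein coding. Filled points for Clec4e sit between 795 and 1003 TPM and its open points between 85.4 and 148 TPM, close to the 60.5 to 77.6 TPM of Clec4a1.

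Most of the RNA assigned to Clec4e lay on isoforms that keep an intron. Isoforms of the retained-intron class held 691, 710 and 814 TPM in replicates 1, 2 and 3, against 85.4, 102 and 148 TPM on protein-coding isoforms. That was 86.9, 84.2 and 81.2% of the gene's TPM on the retained-intron class in the 3 libraries, with no overlap between the classes. Clec4e had a log2 ratio of retained-intron to protein-coding TPM of 2.76 (SE 0.22, limma adjusted p = 0.00329), with 3.02, 2.80 and 2.46 in replicates 1, 2 and 3. Clec4d had 104, 102 and 146 TPM on its retained-intron isoform and 33.5, 46.9 and 73.2 TPM on its protein-coding isoform. Its log2 ratio was 1.25 (SE 0.23, limma adjusted p = 0.0147), with 1.63, 1.12 and 1.00 in the 3 libraries. The retained-intron class was the higher one in both genes in 3 of 3 libraries.

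In that test, the retained-intron class was the higher one in 24.3% of 4311 genes and the protein-coding class in 25.6%. Of the 8 receptors, 3 have isoforms of both classes, and Clec4e and Clec4d passed the level filter of 5 TPM. Clec7a did not pass it, with 1.55, 2.49 and 1.44 TPM on its retained-intron isoform and 1.73, 3.06 and 2.52 TPM on its protein-coding isoforms. The call for Clec4d did not hold without replicate 3 (log2 ratio 1.37, limma adjusted p = 0.0615). It turned to −0.33 in CPM without division by length (limma adjusted p = 0.32). Its retained-intron isoform has 593 bases and its protein-coding one 1323. A ratio of 0 marks equal TPM in the classes as annotated and is not a measure of splicing efficiency.

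Nearly all of this RNA in Clec4e was placed on models that hold intron 2, which spans 2375 bases (chromosome 6, 123286519 to 123288893) with a GC content of 42.5%. Clec4e-206, which keeps intron 2, had 389, 306 and 395 TPM in replicates 1, 2 and 3. Clec4e-205, which keeps introns 2 and 3, had 297, 387 and 392 TPM. In the kallisto-layout tables the gap between them was wider, with means of 419 TPM for Clec4e-206 and 166 TPM for Clec4e-205. Clec4e-203, which keeps the 72 bases of intron 3 alone, had 5.80, 16.98 and 26.3 TPM in the RSEM-layout tables, far below the other two in every library. Models with intron 2 therefore held 86.2, 82.2 and 78.5% of the TPM and 92.9, 91.6 and 89.2% of the counts of the gene. Introns 1, 4 and 5 of Clec4e, of 722, 623 and 1772 bases, are held by no annotated isoform, so that reads inside them could not be assigned to the gene.

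**Figure D2:**
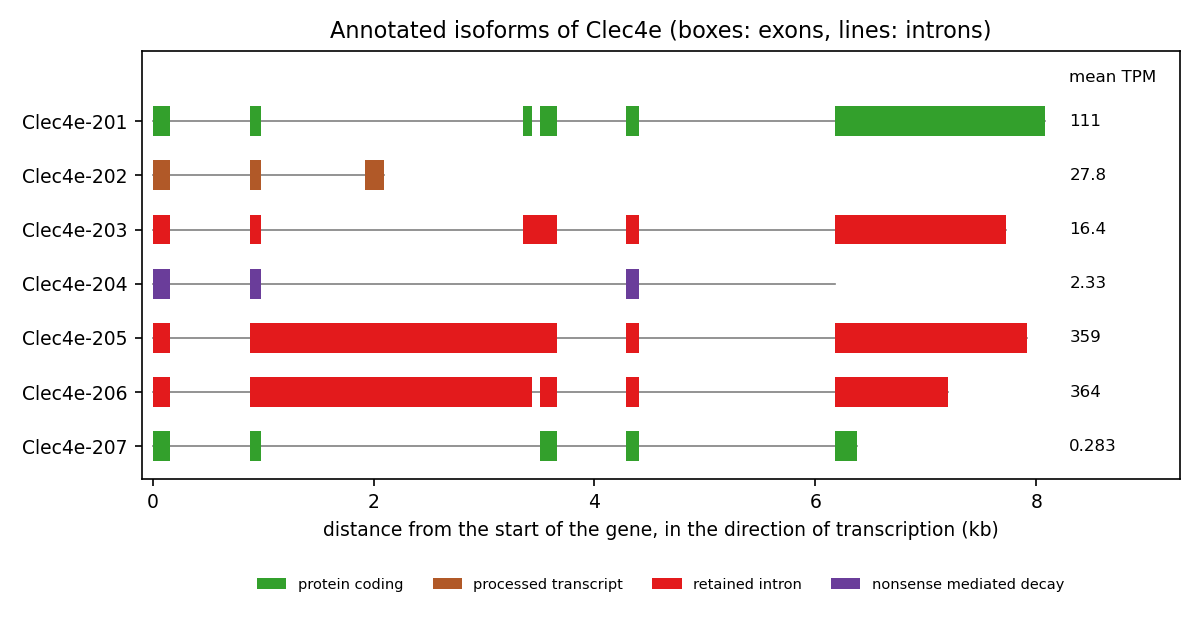
Annotated isoforms of Clec4e against distance from the start of the gene in kb, with exons as boxes, introns as lines and colours for the isoform class. The mean TPM of each isoform stands at the right, and the isoforms whose second box runs across intron 2, Clec4e-205 and Clec4e-206, have 359 and 364 TPM in the RSEM-layout tables shown here.

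The protein-coding isoform Clec4e-201 had 85.0, 101 and 148 TPM in replicates 1, 2 and 3, and the other one, Clec4e-207, had at most 0.51 TPM. Clec4e-202, a processed transcript that ends inside intron 2, had 18.1, 28.4 and 37.0 TPM. The division among the isoforms depended on the quantification. In the kallisto-layout tables the retained-intron class held 63.9, 59.8 and 70.3% of Clec4e. Clec4e-204, a model of 370 bases annotated for nonsense-mediated decay, had 282, 230 and 98.1 TPM there, against 0.51, 2.50 and 3.99 TPM in the RSEM-layout tables. The log2 ratio of the classes was nearly the same in both, at 2.77 from kallisto.

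Clec4d differed in the form of its retained-intron isoform. Clec4d-202 starts inside intron 3 and holds 270 of its 829 bases up to the acceptor printed above, and no isoform of Clec4d holds a whole intron. The decay-annotated Clec4d-203 had 57.4, 9.37 and 23.0 TPM in replicates 1, 2 and 3 and was the most uneven of the 3 isoforms. In counts, the protein-coding Clec4d-201 had 571, 657 and 1120, and Clec4d-202 had 669, 441 and 717.

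**Figure D3:**
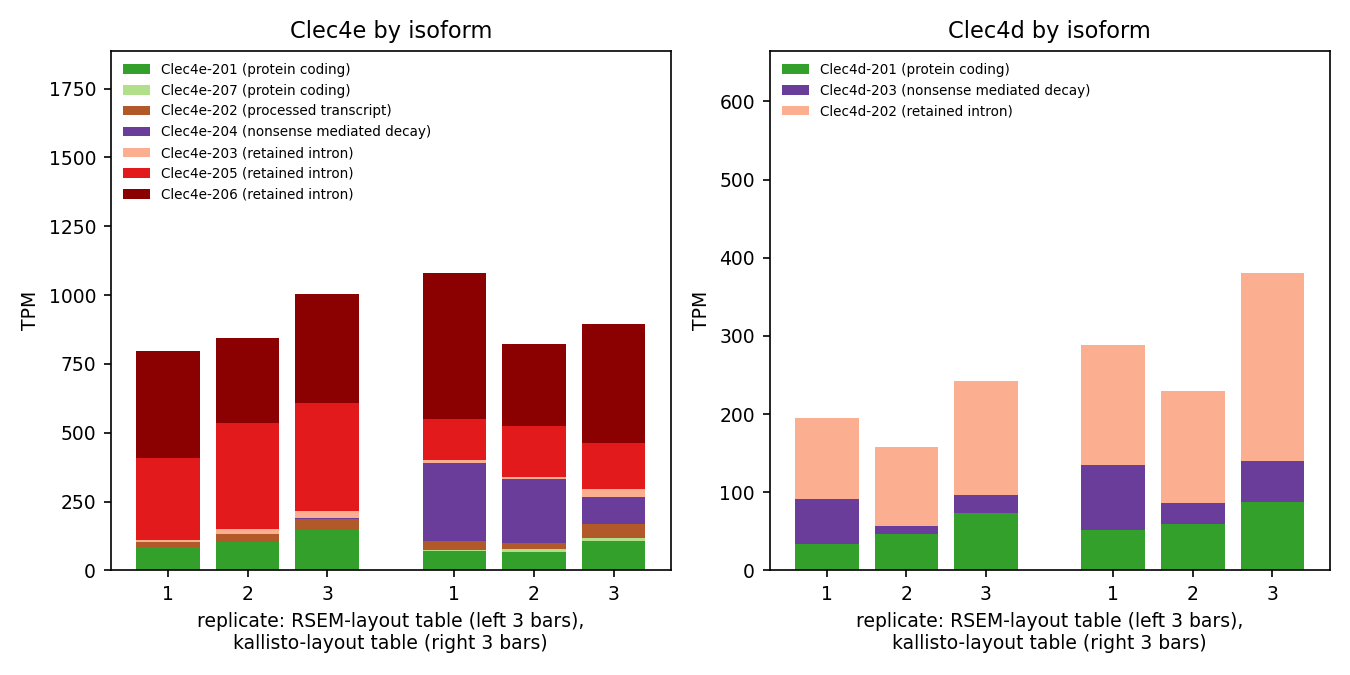
TPM of Clec4e (left) and Clec4d (right) per replicate as stacked bars, 1 colour per isoform, with the RSEM-layout values in the left 3 bars and the kallisto-layout values in the right 3 bars of each panel. Red shades, the retained-intron class, take 81.2 to 86.9% of the RSEM-layout bars of Clec4e, and a purple block for Clec4e-204 of 98.1 to 282 TPM appears in the kallisto-layout bars.

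The order of the genes changed when only protein-coding isoforms were summed, a setting chosen after the data had been seen. Clec4e was still first with 112 ± 32.4 TPM, followed by Clec4a1 with 66.4 ± 9.65 TPM and Clec4d with 51.2 ± 20.2 TPM (SD, n = 3). Clec4a1 has a single isoform, which is protein coding, so its level was the same in both sums. Clec4e was 1.10, 1.67 and 2.44 times as high as Clec4a1 in replicates 1, 2 and 3 in this sum, and 10.3, 13.8 and 16.6 times as high with all isoforms. Clec4d minus Clec4a1 was −0.43 in log2(TPM + 1), with Clec4d the lower gene in replicates 1 and 2 and the higher one in replicate 3.

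Of the other receptors, Clec7a had 47.3, 38.4 and 36.4% of its TPM in the retained-intron class in replicates 1, 2 and 3, and the remaining 5 have no isoform of that class. In Clec5a, Clec5a-201, a processed transcript, had 4.77, 6.44 and 8.53 TPM, or 66.1 ± 0.73% of the gene (SD, n = 3), and the protein-coding isoforms had 2.51, 3.18 and 4.40 TPM. Clec5a thereby fell below Clec4n in the protein-coding sum, where it stood at 3.36 ± 0.96 TPM and Clec4n at 4.64 ± 0.84 TPM. In the kallisto-layout tables Clec5a-201 took only 29.0, 31.4 and 42.5% of the gene. Clec4a3 and Clec4a2 have protein-coding isoforms alone, and the Clec4a3 isoform of 1300 bases held 90.0, 99.8 and 90.1% of that gene in replicates 1, 2 and 3.

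For Clec7a the tables placed the reads on different isoforms. Clec7a-201, which is protein coding, had 44.2, 42.6 and 40.3 counts in the RSEM-layout tables, and at most 0.0011 TPM in the kallisto-layout tables. Clec7a-204, which carries the polymorphic pseudogene label, was given 0, 0.94 and 0 TPM in the RSEM-layout tables and 2.55, 2.76 and 2.31 TPM in the kallisto-layout tables. These isoforms have 2277 and 2272 bases and are identical over their last 1974 bases, so their separate values are uncertain.

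Receptors that signal through ITAM adaptors or a hemITAM (Clec4e, Clec4d, Clec4n, Clec7a and Clec5a) summed to 1006, 1022 and 1268 TPM in replicates 1, 2 and 3, against 94.6, 90.5 and 73.5 TPM for the Clec4a receptors. Of the Clec4a sums, Clec4a1 alone gave 77.6, 61.1 and 60.5 TPM, so that side rests mostly on 1 gene. The difference between the groups was 3.67 ± 0.38 on the log2 scale (SD, n = 3). Without Clec4e the receptors of the ITAM group summed to 211, 179 and 265 TPM, and the difference was 1.33 ± 0.46. With protein-coding isoforms only, the sums were 127, 159 and 234 TPM, against 94.6, 90.6 and 73.5 TPM, and the difference was 0.97 ± 0.64. Each of the 3 versions had the same sign in every library, but the last 2 limits were not combined in them. Clec4e gave 85.4, 102 and 148 TPM of the protein-coding ITAM sums in replicates 1, 2 and 3. What remained of those sums without it lay below the Clec4a sum in replicates 1 and 2 and above it in replicate 3. No test was made on these sums.

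The libraries did not move the 8 genes in 1 direction. Clec4a2, Clec4a3 and Clec7a were higher in replicate 2 than the mean log2 TPM of replicates 1 and 3, by 1.55, 0.78 and 0.85. For the other 5 genes the difference lay between −0.46 for Clec4d and −0.01 for Clec5a. The median over 9856 protein-coding genes was 0.65, so that the 3 genes lay above it and the other 5 below it. With library scaling by TMM factors that median was 0.06, Clec4a2, Clec4a3 and Clec7a stood at 0.39, 0.16 and 0.16, and the other 5 genes at −1.22 to −0.59. With kallisto TPM the median was 0.38, and Clec4a2 and Clec7a lay above it at 0.67 and 0.48 while Clec4a3 lay below it at 0.35. Replicate 2 is also the library with the stromal RNA and the smallest amount of starting RNA, and the part of either in these differences was not tested.

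**Figure D4:**
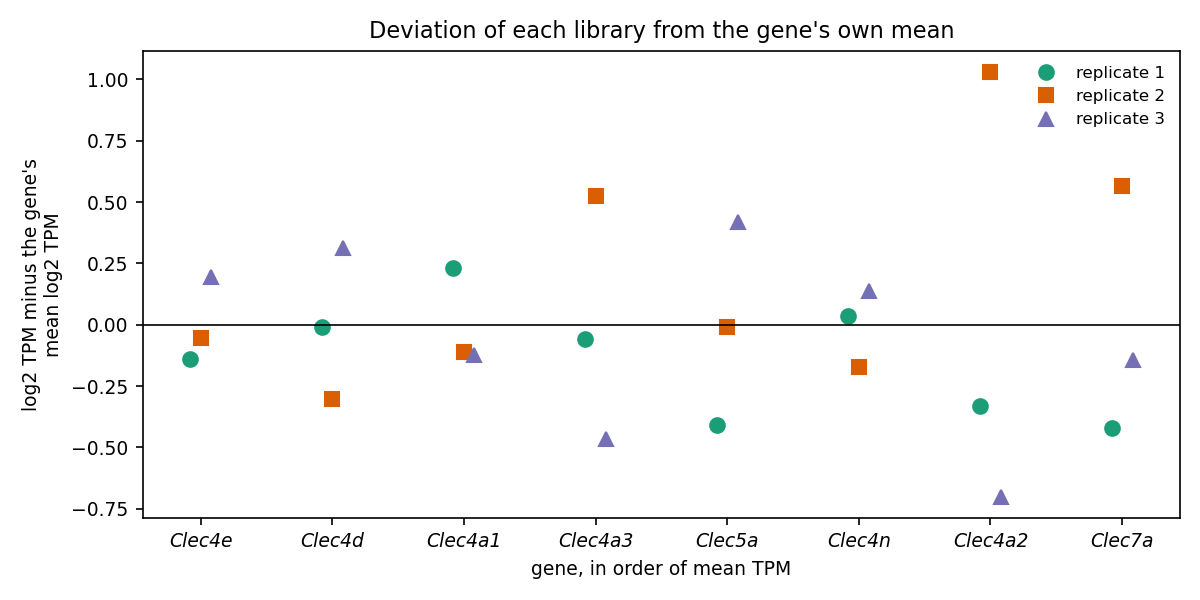
Log2 TPM of each library minus the gene's own mean over the 3 libraries, for each gene in order of mean TPM. The square of replicate 2 is the highest point for Clec4a3, Clec4a2 and Clec7a, at 0.52, 1.03 and 0.56, and lies at or below 0 for the other 5 genes.

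The coefficients of variation of TPM of the 8 genes had a median of 24.9%, beside 26.3% for the 4559 protein-coding genes with a mean of at least 10 TPM. Clec5a, Clec4n, Clec4a2 and Clec7a have means below 10 TPM, so the sets are unlike in level. By root-mean-square difference of log2 deviations over the 3 libraries, the pattern of Clec4e was nearest to that of Clec4n (0.13), as was that of Clec4d (0.13), and that of Clec4a2 was nearest to Clec4a3 (0.36). Clec4a3 and Clec7a were each other's nearest (0.28). Among 4540 protein-coding genes of at least 10 TPM, the nearest to the mean pattern of the 4 highest receptors were Prkcd, Rnf115, Itprid2, Ccdc25 and St18, at 0.0064 to 0.0121. That mean pattern was nearly flat, with log2 deviations of 0.0069, 0.0134 and −0.0203 in replicates 1, 2 and 3. In replicate 2, Clec4a3 at 0.52 offset Clec4d at −0.30, Clec4a1 at −0.11 and Clec4e at −0.06. The genes nearest to the mean pattern were thus genes that varied little, which does not show likeness to any single receptor. With 3 libraries such nearness is common, and 329 genes lay within 0.1 of the mean pattern.

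On chromosome 6, 6 of the 8 receptors lie within 368 kb, from the start of Clec4a1 to the end of Clec4e (122921848 to 123289870). Clec7a lies 6.17 Mb and Clec5a 82.3 Mb away. The cluster holds 9 protein-coding genes, of which the 3 others are receptors too. Clec4a4 had 1.10, 1.78 and 1.07 TPM in replicates 1, 2 and 3, Clec4b1 had 0.57, 0.47 and 0 TPM, and Clec4b2 had no count in the RSEM-layout tables. All 3 lay below every one of the 6 receptors in each library. The 2 highest genes, Clec4d and Clec4e, lie at one end, face each other on opposite strands and are 6523 bases apart, while Clec4a1 lies at the other end. The 4 non-coding genes of the cluster had no counts in the RSEM-layout tables, and their kallisto means ran from 0 to 0.97 TPM.

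**Figure D5:**
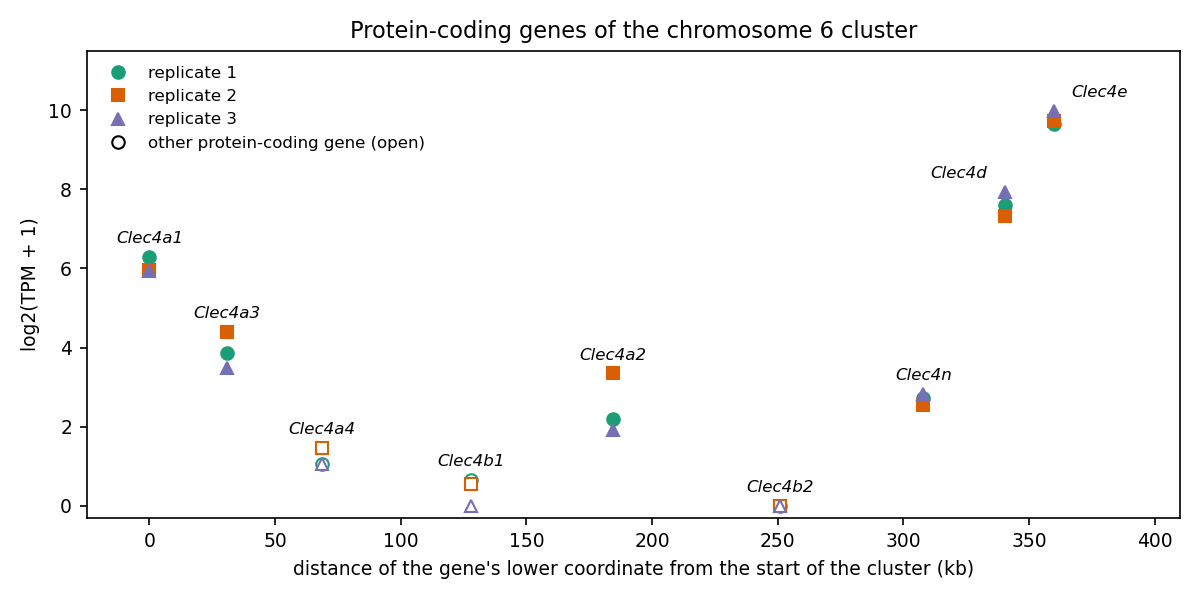
Level as log2(TPM + 1) of the 9 protein-coding genes of the cluster against the distance in kb from its start, with 1 point per library. Filled points are the receptors described here and open points the 3 other genes, which lie between 68.5 and 251 kb and have at most 1.78 TPM.

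The receptors are paralogs, and reads could be split between them. Of the protein-coding sequences, those of Clec4a2 and Clec4a3 were the most alike, identical at 75.9% of aligned bases, and those of Clec4e and Clec4d were identical at 61.9%. Of the 31-base words in its isoforms, Clec4a2 shared 10.9% with other genes. Of these 319 shared words, 145 were shared with Clec4a4, the most for any 1 gene. Clec4a3 shared 2.19% of its words and Clec4n 1.97%. Clec4e shared 0.099%, while Clec4d, Clec4a1 and Clec5a shared 0. The posterior SD of the gene count, a measure in the deposited tables of how uncertain the assignment of reads was, was 0 for all 8 receptors in every library, as it was for 66.3% of genes with over 10 counts in each library. Gene counts still differed between the quantifications. The ratio of kallisto to RSEM counts ran from 1.24 for Clec4e to 3.13 for Clec4n, beside 1.55 to 1.78 for the library totals.

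RefSeq promoter sequences (GRCm38.p6) were at hand for 7 of the 8 receptors, as 9 windows of 250 bases before a start site. The PU.1 core GAGGAA, a binding motif of a transcription factor that macrophages need, was present on either strand in 6 of the 7, beside 23.3% of all 32851 promoter windows. Clec4a2 was the one without it, and in Clec4a3 only 1 of 2 windows had it. The C/EBP pattern TTNNGCAA or TTGCNNAA was present in Clec4e only among these genes, beside 9.56% of all windows. No window held the AP-1 pattern TGANTCA or a kappaB site, beside 6.75 and 7.25% of all windows, which says only that these letters are not in those 250 bases. The window of Clec4e, the highest gene, lies on the − strand at chr6:123289872-123290121. Its capitals mark the 2 PU.1 cores, which begin 123 and 56 bases before the start, and between them the C/EBP pattern, which begins 66 bases before it. A match is a description and not evidence of binding.
Clec4e promoter: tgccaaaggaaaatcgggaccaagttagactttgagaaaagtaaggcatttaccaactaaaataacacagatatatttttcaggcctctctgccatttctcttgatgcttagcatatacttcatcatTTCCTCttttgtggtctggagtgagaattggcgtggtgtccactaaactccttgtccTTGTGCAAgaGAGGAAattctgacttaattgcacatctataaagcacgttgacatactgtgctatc

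Most of the signalling partners of these receptors were transcribed. All 28 genes of the list were detected, which takes only more than 3 counts in 1 library. At least 1 TPM in every library was reached by 27, beside 38.9% of the 22028 protein-coding genes, and at least 10 TPM by 21, beside 16.7%. The median of mean TPM over the list was 46.2, beside 12.3 for the 8 receptors and 0.56 for all protein-coding genes. Malt1, the protease of the complex that links the receptors to NF-kB, had 1270, 1522 and 2382 TPM in replicates 1, 2 and 3. Syk, the kinase that binds the ITAM, had 712, 673 and 763 TPM, and Prkcd, which encodes protein kinase C delta, had 497, 494 and 484 TPM. These 3 were the highest of the list, and Syk and Prkcd varied little between libraries in TPM. Their spread in scaled counts was not examined. Rasgrf1, a nucleotide exchange factor, was lowest at 0.14 ± 0.02 TPM, from 8, 8 and 7 counts, but averaged 3.58 TPM with kallisto.

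The adaptors stood at different levels. Fcer1g, which encodes the Fc receptor gamma chain used by Clec4e and Clec4n, had 203, 168 and 128 TPM in replicates 1, 2 and 3. Tyrobp, which encodes the DAP12 used by Clec5a, had 23.6, 48.9 and 19.8 TPM, and Hcst, which encodes DAP10, had 2.19, 2.00 and 1.07 TPM from 9, 4 and 3 counts. Thus Fcer1g exceeded Tyrobp and Tyrobp exceeded Hcst in 3 of 3 libraries. Card9 had 26.7, 45.0 and 35.2 TPM and Bcl10 had 44.0, 33.6 and 46.4 TPM. Ptpn6, which encodes a phosphatase recruited by inhibitory receptors, had 51.3, 49.9 and 25.7 TPM. These adaptors and Card9, Bcl10 and Ptpn6 were singled out after their values had been seen.

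Other C-type lectin genes were mostly low, as protein-coding genes in general were. Of 41, 28 were detected. At least 1 TPM in every library was reached by 13, beside 38.9% of the 22028 protein-coding genes, and at least 10 TPM by 5, beside 16.7%. The median of mean TPM was 0.46, beside 0.56 for all protein-coding genes and 12.3 for the 8 receptors. Clec2d, which encodes a ligand of a natural killer cell receptor, was highest with 547, 465 and 551 TPM in replicates 1, 2 and 3, below Clec4e and above Clec4d in every library. The inhibitory receptor gene Clec12a had 90.0, 106 and 108 TPM, and Mrc1, which encodes the mannose receptor, had 23.8, 36.2 and 41.4 TPM. Clec14a was the lowest detected gene, with 0, 5 and 0 counts in replicates 1, 2 and 3, so its detection rested on replicate 2. The same held for Mrc2, with 0, 689 and 0 counts, and for Clec11a, with 0, 52 and 3. Clec4b1, with 5, 3 and 0 counts, passed in replicate 1 only. Fibroblast and stromal markers were also far higher in replicate 2. Whether the macrophages themselves transcribed Clec14a, Mrc2 and Clec11a was not tested.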

How the data were processed

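Tables of expected counts for genes and transcripts were deposited by the authors in the layout that RSEM writes, with TPM values beside them by maximum likelihood (used here) and as posterior means. Estimated counts and TPM per transcript were also deposited by the authors in the layout of kallisto. Per the file notes and labels the tables rest on mm10 and GENCODE M21. Aligner and strand setting, on which reads of overlapping and antisense genes depend, were not given in the sources used here. Rows that name no gene held 0.269 to 1.94% of counts and were left out.

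With 1 group, every comparison is within libraries. Levels of neighbours were compared as log2(TPM + 1) by exact two-sided sign flips. This pseudocount shrinks differences of low genes. A pair differed beyond its spread where the sign was the same in all 3 libraries and the mean exceeded the SD. Isoform classes were compared with limma 3.58.1 (R 4.3.3) from the log2 of summed TPM plus 0.1, against 0, over genes with both classes and a summed mean of at least 5 TPM, with Benjamini-Hochberg adjustment at 0.05. The script was tested on simulated data. TMM factors came from edgeR 4.0.16 and size factors from DESeq2 1.42.0, both on expected counts rounded to whole numbers. Python 3.11.15 with pandas 2.3.3, numpy 2.4.6, scipy 1.17.1, Biopython 1.88 and matplotlib 3.10.9 served for tables, sequences and plots.

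A gene was called undetected at 3 or fewer counts in every library. Named genes were the 8 receptors, the protein-coding genes of their cluster, the 3 highest and the lowest detected of each list, members of lists of at most 12 genes, and the 5 genes nearest in pattern. Mrc2 and Clec11a were named besides, for their counts in replicate 2, after their values had been seen. The receptors, lists and settings were chosen with earlier results of these data known.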

Additional observations from a re-analysis of the deposited data

How the results depend on the processing

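Of 56 recomputed differences between neighbours in the order, 48 kept their sign. Clec4d minus Clec4a1 became −0.43 and Clec5a minus Clec4n −0.38 with protein-coding isoforms only, and Clec4a3 minus Clec5a became −0.26 in CPM without length. Clec4n minus Clec4a2 became −0.14 with kallisto TPM, −0.39 in CPM, −0.0003 with protein-coding isoforms and −0.13 to 0.72 with 1 replicate left out, lowest without replicate 3. Clec4a2 minus Clec7a lay at −0.15 to 0.27 with 1 replicate left out, lowest without replicate 2, and at 1.13 with kallisto TPM and 0.72 with protein-coding isoforms. The ITAM group minus the Clec4a group became 4.96 in CPM, 0.97 with protein-coding isoforms and 1.33 without Clec4e. The log2 isoform ratio of Clec4e stayed past the threshold in all 8 settings tried, and that of Clec4d in 6 of 8, the exceptions being −0.33 in CPM and the fit without replicate 3. Over all genes, the retained-intron class was higher in 1810 genes with kallisto TPM and in 426 to 838 with 1 replicate left out, lowest without replicate 3. The protein-coding class was higher in 2856 genes in CPM and in 541 to 851 with 1 replicate left out. The cause of these changes was not tested. The CPM fit covered 4966 genes and the kallisto fit 4871, in place of 4311. Levels of Clec7a, Clec4n and Clec4a2 rest on 56 to 147 counts per library, which limits their order. No paired analysis was possible because no other group exists to pair the replicates with, and the tests already use differences within each library.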
